A study of Mus musculus with 30 samples.

Results

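The regions described here are 1809 places on mouse chromosomes 1 to 19 where the chromatin remodeler Snf2h gave a called peak in wild-type B lymphoma cells, no called peak overlapped in cells with a shortened CTCF, and cohesin was called in fibroblasts. They are 1809 of the 16793 regions that the wild-type Snf2h list holds on these chromosomes, and of 624917 regions in the 8 deposited peak lists analysed here. A region was chosen when it shared no base with any region of the mutant Snf2h list and at least 1 bp with a region of each of 6 cohesin lists. The members were therefore selected on the calls themselves, so the share of regions that lack a mutant call, and the Snf2h strength that goes with being called, are given below as descriptions with no test. No base shared with a mutant region held for 38.4% of the wild-type list (6446 regions), a base shared with all 6 cohesin lists for 23.2% (3901 regions), and both together for 10.8%.

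The Snf2h libraries came from wtCH12, a mouse B lymphoma line with intact CTCF, and from mutCH12, the same line after Cas9 editing removed zinc fingers 9 to 11 of CTCF on both alleles. Neither line carried an expression vector or had a treatment beyond that editing. The cohesin libraries came from NIH3T3, an immortalized mouse embryonic fibroblast line, in 2 stable forms: NIH3T3+EV, which carried a CpG-free control plasmid with beta-galactosidase, and NIH3T3+BORIS (clone2), 1 clone that expressed BORIS from such a plasmid. Each form was immunoprecipitated with antibodies to 3 cohesin subunits, SMC1, RAD21 and SMC3. Cohesin was thus read in fibroblasts and Snf2h in B cells, and whether cohesin lay at these positions in CH12 cells was not analysed here. Every group is 1 list, so no difference has a replicate check, no p-value is given, and the 95% intervals (Clopper-Pearson for shares, order statistics for medians) cover counting error over regions only. The peaks of 1 list share a library and are not replicates of a condition.

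Snf2h, also called SMARCA5, is the ATPase of the ISWI family of remodelers, which slide nucleosomes and space them in regular arrays. CTCF binds DNA through a row of zinc fingers, and the nucleosomes on either side of a bound CTCF are phased in an array that is known to need Snf2h. Cohesin is a ring built from SMC1, SMC3 and RAD21 that extrudes chromatin loops and comes to rest at many CTCF sites. BORIS, also called CTCFL, is the germline paralog of CTCF and has a similar zinc finger domain.

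Cohesin overlap in the Snf2h lists was close to all or none. Of the 6446 wild-type-only Snf2h regions, 28.1% (27.0% to 29.2%) met all 6 cohesin lists and 60.6% met none. Each count between 1 and 5 lists held only 122 to 174 regions, or 1.89% to 2.70%. The share at all 6 lists was 20.2% (19.4% to 21.0%) of the 10347 wild-type regions with a mutant counterpart (shared regions) and 20.7% (20.0% to 21.4%) of the 13206 mutant-only regions. The rule itself uses these overlaps, so the 3 shares describe the lists and are not tested against each other.

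**Figure D1:**
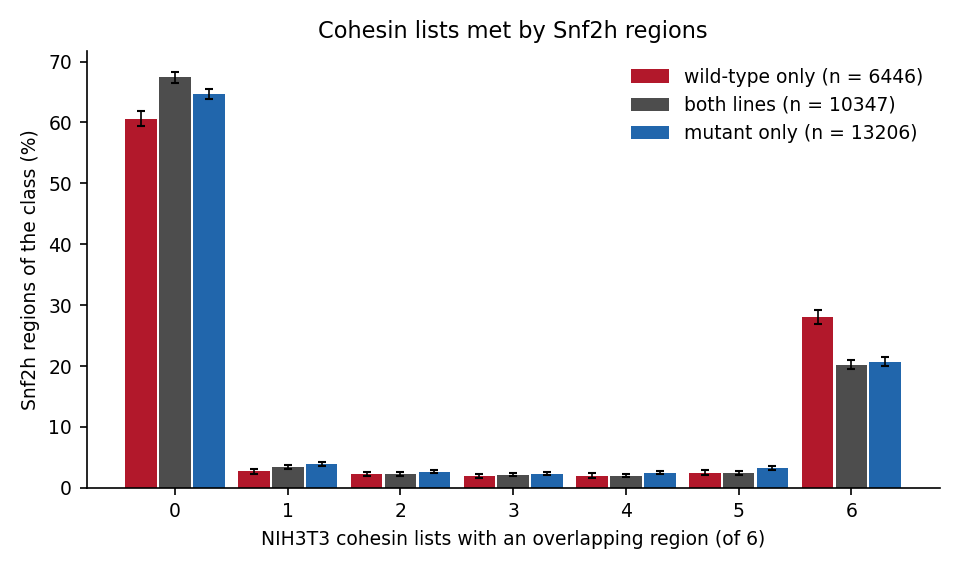
Share of Snf2h regions (vertical axis, percent of the class) by the number of NIH3T3 cohesin lists that they overlapped (horizontal axis, 0 to 6), for wild-type-only, shared and mutant-only regions, with 95% Clopper-Pearson intervals. Regions pile up at 0 and 6 lists, and the wild-type-only class is highest at 6 (28.1%) and lowest at 0 (60.6%).

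A further 160 wild-type-only regions met 5 of the 6 lists and so fell just outside the rule. The missing list was BORIS RAD21 for 57 of them and EV RAD21 for 38, against 25 for BORIS SMC1, 16 for BORIS SMC3, 14 for EV SMC3 and 10 for EV SMC1. RAD21 was the antibody with the shortest lists, 82401 regions in EV and 80268 in BORIS, where the other 4 lists held 98604 to 105041. Of the 160, 17 had a region of the missing list within 20 bp. On the inner side of the rule, 33 of the 1809 members shared at most 20 bp with one of the cohesin lists, and the smallest shared stretches were 1, 2 and 3 bp. For the mutant condition, 6 members had a mutant region within 20 bp (the closest at 3, 10 and 13 bp), while 13 shared regions at cohesin overlapped a mutant region by at most 20 bp (the smallest by 2, 4 and 5 bp). The edges of the rule therefore concern few of the members.

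The members were narrow, low peaks. Their median width was 211 bp (207 to 214; quartiles 178 and 257), and 240 of them, 13.3%, were 163 bp wide, the narrowest width in the wild-type list. The median of the deposited fold enrichment at the summit was 3.47 (3.44 to 3.50), and that of the deposited -log10 q was 3.97. Ranked by deposited -log10 p, the median member stood at percentile 34.1 of the wild-type list (31.9 to 36.1; quartiles 16.0 and 53.7). The 2092 wild-type regions at the same kind of cohesin site that did overlap a mutant region had a median width of 266 bp, a median fold of 3.66 and a median percentile of 56.7. The 3907 wild-type-only regions at no cohesin list resembled the members, with 206 bp, 3.34 and percentile 32.1. Low rank thus went with the lack of a mutant call both at and away from cohesin, and since the rule acts on calls, this rank is part of the choice.

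The fold and -log10 p of a MACS2 peak together fix the fragment pileup at its summit and the local background rate, and these were solved for each region. The median member had 21 fragments at its summit (quartiles 18 and 24) over a background of 5.23, and the lowest had 13, which is also the lowest pileup in the whole wild-type list. At least 30 fragments were stacked at 139 members (7.68%; 6.50% to 9.01%), against 32.5% (30.5% to 34.6%) of the shared regions at cohesin. At least 50 were stacked at 16 members (0.884%). Only 8 members (0.442%) belonged to the strongest decile of the wild-type list, and 36 (1.99%) had a deposited -log10 q of at least 10. The mutant list had calls down to 10 fragments and the lower background: taking the lowest background rate over the narrowest width, its depth was 0.670 of that of the wild-type list (13.8 against 20.6 fragments per kb). It nevertheless held more regions, 23441 against 16793.

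A small set of members lay in stretches of high background. The background rate was at least 20 fragments at 9 members, where pileups of 58 to 324 gave folds of only 1.31 to 2.71. Among the other 1800 members the lowest fold was 2.34 and the highest pileup 98, and their median distance to cohesin (66.0 bp) and to a mutant region (15.0 kb) was close to that of all members.

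The strongest member by -log10 p lay at chr3:68847945-68848423 (mm9), with 98 fragments at its summit, a fold of 9.43 and a width of 479 bp. It was atypical: its summit was 398.5 bp from the cohesin summits, which themselves spread over 366 bp, and its mean cohesin percentile was 56.3. The next by rank sat close to cohesin. At chr7:28040692-28040995, 50 fragments gave a fold of 7.57, and the summit lay 67 bp from cohesin. At chr13:107895546-107895864, 51 fragments gave a fold of 7.38, and the summit lay 53 bp from cohesin. The member at chr1:70316759-70317088 had 42 fragments and a fold of 8.16. Its summit was 5.5 bp from the cohesin summits, and the nearest mutant Snf2h region was 585.5 kb away. At chr5:115892555-115892971, 41 fragments gave a fold of 6.31 at 22 bp from cohesin, with a mutant region 693 bp away that itself met all 6 cohesin lists. The sixth, chr15:78002156-78002491, had 50 fragments over a background of 8.87, for a fold of 5.17, at 52 bp from cohesin. So 5 of the 6 strongest members had their summit within 67 bp of cohesin, and the strongest of all did not. The median distance over all members was 66.5 bp, so 67 bp is not close by the measure of the members.

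Snf2h summits lay at most 200 bp from the cohesin summits at 91.3% of the members. This was 84.8% for the shared and 85.5% for the mutant-only regions at cohesin. A shared base with each list is required in all of these classes, which limits the distance. For each member the distance to the nearest summit in each cohesin list was taken, and the median over the 6 lists was used. The median member was 66.5 bp from cohesin (64.0 to 69.5; quartiles 37.5 and 109), and the medians against single lists ran only from 64 bp (BORIS RAD21) to 67 bp (EV SMC1, EV SMC3 and BORIS SMC3). Among the 36 members with a deposited -log10 q of at least 10 the median was 39.25 bp (27 to 63). The 6 cohesin summits of a member spanned a median of 31 bp, and at 68.0% of members the distance to Snf2h was greater than that span. All 6 cohesin summits lay on one side of the Snf2h summit at 81.1% of members. Neither side was preferred, as cohesin lay at the higher coordinate in 49.1% (46.8% to 51.4%) and at the lower in 50.7%. Motif orientation was not analysed here.

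By 20-bp steps of distance, 12.9% of the members (11.4% to 14.5%) lay within 20 bp of cohesin, 14.3% from 20 to 40 bp, 17.5% (15.7% to 19.3%) from 40 to 60 bp and 15.7% from 60 to 80 bp. The share then declined to 10.7%, 8.24% and 4.64% over the next 3 steps, and 8.73% lay beyond 200 bp. The most filled step was thus not the one at cohesin itself. Where the 6 cohesin summits lay within 30 bp of each other, the intervals of these steps overlapped. There 14.8% (12.6% to 17.3%) of members lay within 20 bp and 18.7% (16.1% to 21.4%) from 40 to 60 bp. Among shared regions of that kind the step within 20 bp was the most filled (15.9%). The error of a member's Snf2h summit was not measured. Where a wild-type region at cohesin overlapped a mutant region, the Snf2h summits of the 2 lines were a median of 51 bp apart (47 to 55), which holds the error of both summits and any shift between the lines. A distance taken without sign is above 0 even where there is no offset, and whether Snf2h lay beside cohesin or on it was not tested. The median of the signed distances was -2.5 bp (-9.5 to 3.0). The Snf2h summit was inside a region of all 6 lists at 80.5% of members, and the Snf2h region enclosed all 6 cohesin summits at 65.6%.

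**Figure D2:**
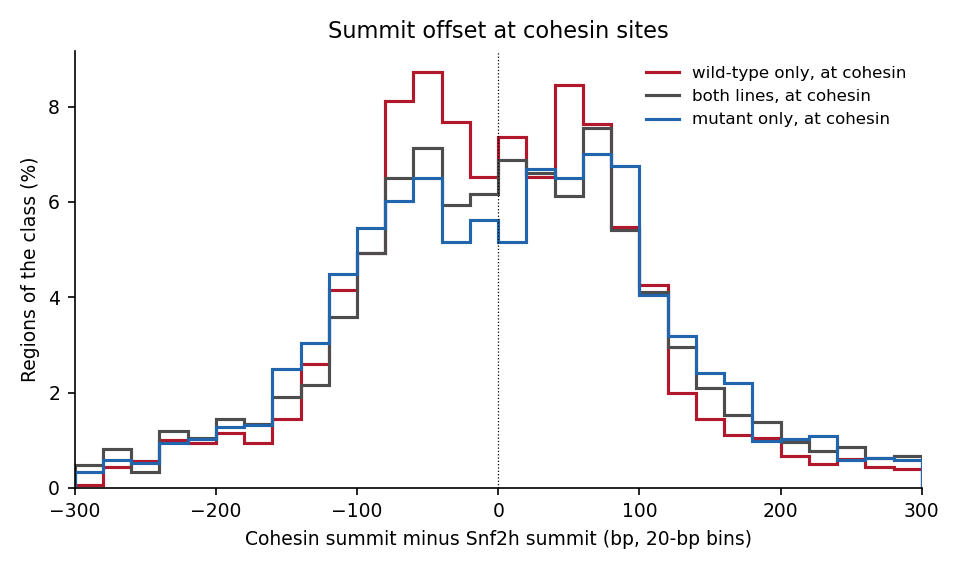
Cohesin summit minus Snf2h summit (horizontal axis, bp, median over 6 cohesin lists, 20-bp bins) and share of regions (vertical axis, percent of the class) for Snf2h regions at all 6 cohesin lists. The bins at 40 to 60 bp on either side hold 8.73% and 8.46% of the wild-type-only regions, and the bins beside 0 hold 6.52% and 7.35%.

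The members lay closer to cohesin than the other Snf2h classes at such sites, before width was limited. The median distance was 78.5 bp (75 to 81.5) for the shared regions and 84.5 bp (81.5 to 87.0) for the 2738 mutant-only regions, both with intervals clear of the members' interval. Distances of at most 100 bp made up 71.0% of the members (68.8% to 73.1%), 61.5% of the shared and 59.4% of the mutant-only regions. Distances of at most 50 bp made up 35.9%, 30.4% and 26.8%. Members were also narrower (211 bp) than shared (266 bp) and mutant-only regions (258 bp), so the comparison was repeated among regions no wider than 211 bp. This limit does not match widths, as the narrowest member had 163 bp and the narrowest mutant-only region 187 bp. The medians were then 63.0 bp (60.0 to 66.5), 69.0 bp (65.0 to 76.0) and 74.0 bp (66.5 to 78.5), and the intervals of members and shared regions overlapped. Where the 6 cohesin summits lay within 30 bp of each other they were 62.2 bp (58.0 to 65.5), 68.5 bp (65.0 to 73.5) and 75 bp (72 to 80.5). The order of the 3 classes was kept in both subsets, but the width of the cohesin regions was not matched. Over all members those regions were narrower than in the other classes in each of the 6 lists. The gap of about 6 bp between members and shared regions was not tested itself. What part width has in it was not tested further.

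At cohesin sites a wild-type Snf2h region more often lacked a mutant counterpart than elsewhere. The share was 46.4% (44.8% to 48.0%) at all 6 cohesin lists, 36.4% (34.3% to 38.5%) at 1 to 5 lists and 35.9% (35.0% to 36.8%) at none. Weighted to the ranks of the regions at cohesin, the share at none was 40.1%. The share was largest for regions of low rank at 6 lists, at 1 to 5 lists and at none, so the 2 were compared within 10 rank classes (deciles) of the wild-type list. In the weakest decile 67.9% of the regions at cohesin and 66.7% of those at no list had no mutant counterpart. In the ninth decile these shares were 19.2% and 9.53%, and in the strongest decile 3.10% and 1.60%. The share at cohesin was higher in 10 of 10 deciles, by 1.21 to 9.72 percentage points, and the intervals were apart in 3 of them. Without weighting for rank, the share was also higher at cohesin on 19 of 19 autosomes. The intervals overlapped on some of them, as on chromosome 3 (42.1%, 35.3% to 49.1%, against 36.8%, 32.6% to 41.2%). Since the rule uses this contrast, these shares describe the lists and are no independent evidence.

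**Figure D3:**
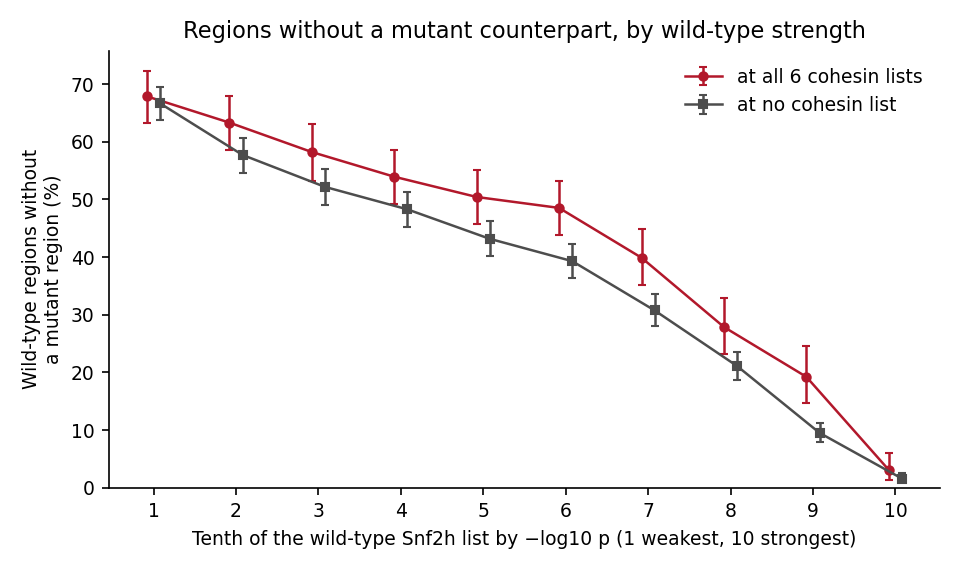
Share of wild-type Snf2h regions with no mutant counterpart (vertical axis, percent, 95% Clopper-Pearson intervals) by decile of the wild-type list by -log10 p (horizontal axis, 1 weakest to 10 strongest), at all 6 cohesin lists and at none. Both lines drop from about 67% to below 4%, and the line for cohesin is the higher one throughout.

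Distance from cohesin also went with the lack of a mutant counterpart. The 3901 wild-type regions at all 6 lists were split into quintiles by distance, and 48.0%, 53.8%, 49.2%, 45.6% and 35.1% had no mutant region. The last quintile, 144 to 2864 bp from the cohesin summit, stood below the others. In the stronger 50% of the wild-type list the same quintiles gave 31.8%, 39.4%, 33.1%, 33.0% and 18.0%, and in the weaker 50% they gave 61.7%, 65.8%, 60.8%, 55.5% and 49.4%. The far regions thus had a mutant counterpart more often at either level of rank, with no test made. In the weaker 50% the interval of the last quintile (44.6% to 54.3%) overlapped that of the quintile before it (50.7% to 60.2%). The rule uses overlap with the mutant list, so these shares describe the lists. Width moved with the same share far more steeply, from 67.7% in the narrowest quintile to 18.8% in the widest. The median wild-type percentile went from 30.0 to 70.0 over these width classes, while it stayed between 43.9 and 46.0 over the distance classes, so width moved together with rank. Its part in the trend with distance was not tested.

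The cohesin sites of the members were strong ones in both fibroblast forms. The mean percentile over the 6 lists had a median of 84.7 (83.8 to 85.4; quartiles 70.5 and 92.9). This measure comes from libraries that the mutant condition did not use, although overlap with all 6 lists does select for strength. By list, the members' median percentile in NIH3T3+EV was 87.1 (SMC1), 82.1 (RAD21) and 86.2 (SMC3). In NIH3T3+BORIS (clone2) it was 85.7 (SMC1), 81.9 (RAD21) and 87.1 (SMC3). The deposited cohesin folds at members had medians of 20.3, 24.3 and 24.3 in EV and 14.3, 17.7 and 18.3 in BORIS (same order of antibodies), against 6.44 to 7.54 over all regions of the 6 lists. The cohesin regions that they met had median widths of 350 to 408 bp, against 222 to 237 bp over all regions. Those at shared (385 to 462 bp) and mutant-only Snf2h regions (383 to 451.5 bp) were wider than the members' in each of the 6 lists. Folds from separate lists depend on each library's depth, so these are set only against all regions of the same list.

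Among cohesin sites present in all 6 lists, those with a member still stood high. Merging gave 50858 such sites. The 43639 without any Snf2h region of either line had a median percentile of 67.8 (67.5 to 68.1), and the 1797 that held a member had 84.9 (83.9 to 85.7). The share of sites that held a member was 1.13% in the weakest quintile of the sites and 1.78%, 2.98%, 4.67% and 7.11% in the following quintiles. Sites that held a mutant but no wild-type Snf2h region made up 4.98%, 4.24%, 4.63%, 6.11% and 9.84% of the same quintiles. They too were most frequent in the strongest quintile, but without a steady climb from the weakest. Sites that held any wild-type Snf2h region, members' sites included, did climb at each step, with 4.47%, 5.12%, 6.63%, 9.87% and 15.1%. The steady climb was thus seen for the wild-type list as a whole. The shared Snf2h regions had a median of 82.8 (81.6 to 83.9), whose interval just overlapped that of the members. In the strongest 25% of all 6 lists stood 54.3% (52.0% to 56.6%) of the members and 49.3% (47.2% to 51.5%) of the shared regions. In the strongest 10% it was 22.2% and 22.5%. Cohesin strength therefore separated the members from sites without Snf2h far more than from sites with shared Snf2h.

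**Figure D4:**
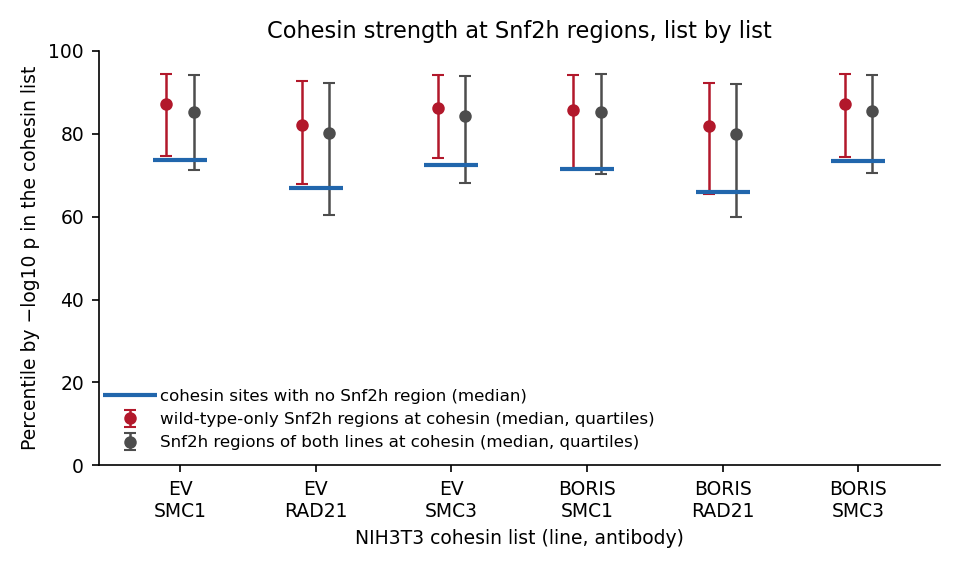
Percentile of the overlapping cohesin region by -log10 p in its own list (vertical axis) for each of the 6 cohesin lists (horizontal axis), as median with quartiles for wild-type-only and shared Snf2h regions, and as median for cohesin sites of all 6 lists without Snf2h. Members lie between 81.9 and 87.1, a little above the shared regions and well above the sites without Snf2h.

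Among the regions at all 6 lists, cohesin strength had a shallow relation to the lack of a mutant region. By quintiles of the mean cohesin percentile the share without a mutant region was 39.4% in the weakest quintile, then 45.9%, 50.4%, 49.6% and 46.5%. The weakest quintile stood lowest, and the share did not climb further beyond the middle quintile.

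The strongest cohesin sites that held a member were among the top sites of the fibroblast lists, while the Snf2h peak on them could be weak. The member at chr1:182198825-182199091 had a cohesin percentile of at least 99.96 in each list. Its cohesin folds ran from 59.3 (BORIS SMC1) to 74.9 (EV RAD21). Its own Snf2h peak had 20 fragments, a fold of 2.91 and percentile 8.11, and its summit was 39.5 bp from cohesin. At chr10:76593400-76593618 the lowest cohesin percentile was 99.90, with 22 Snf2h fragments, a fold of 4.52 and a distance of 15.5 bp. At chr1:196706229-196706417 the lowest was 99.83, with 18 fragments and a fold of 4.03. That summit lay 391.5 bp from cohesin, and a mutant Snf2h region, which met all 6 lists as well, lay 132 bp from the member.

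The 6 cohesin lists held 80268 to 105041 regions, and a percentile moves with the length of its list. The members' percentiles are therefore not read as differences between antibodies, or between NIH3T3+EV and NIH3T3+BORIS (clone2).

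A few members had unlike values in the 2 fibroblast forms, given side by side here. At chr11:79294248-79294412 the SMC1 percentile was 69.0 in EV and 34.2 in BORIS, that of RAD21 70.9 and 23.0, and that of SMC3 73.1 and 20.6. The cohesin pileups there were 25, 34 and 33 fragments in EV and 12, 10 and 10 in BORIS. The opposite order held at chr2:156138989-156139171, with percentiles of 3.57, 31.0 and 13.9 in EV and 72.8, 51.0 and 82.6 in BORIS. The pileups were 10, 15 and 11 fragments in EV and 29, 19 and 46 in BORIS. At chr1:137164799-137164965 they were 13, 21 and 13 in EV and 34, 37 and 38 in BORIS. These members were named as the extremes of the difference, so their size is a description. Pileups and folds also depend on the depth of each library, which is 1 per antibody and form.

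A mutant Snf2h region was rarely next to a member. The median distance from edge to edge was 14.8 kb (13.9 to 16.1; quartiles 5.99 and 37.8 kb). With a threshold of 10 on -log10 q in the wild-type and the mutant list it was 84.5 kb (59.2 to 106.4) over 116 regions. That setting also leaves fewer mutant regions to be near. With the threshold in the wild-type list alone the median was 10.7 kb (5.26 to 23.0) over 36 members. A mutant region lay within 200 bp of 69 members (3.81%; 2.98% to 4.80%) and within 1 kb of 185 (10.2%; 8.87% to 11.7%). The wild-type-only regions at no cohesin list had nearly the same median, 15.0 kb, but more close neighbours, with 7.14% (6.35% to 7.99%) within 200 bp and 16.4% (15.3% to 17.6%) within 1 kb. At 100 kb the order had turned, as 93.1% of the members and 86.8% of the others had a mutant region within that distance. The members thus had fewer mutant regions close by and also fewer long gaps than the regions at no list. Wild-type-only regions at 1 to 5 lists had a mutant region within 200 bp in 9.32% and within 100 kb in 94.1%. For mutant-only regions at cohesin, a wild-type region lay within 200 bp in 3.21% and within 100 kb in 89.6%. Neither trait was therefore particular to the members.

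**Figure D5:**
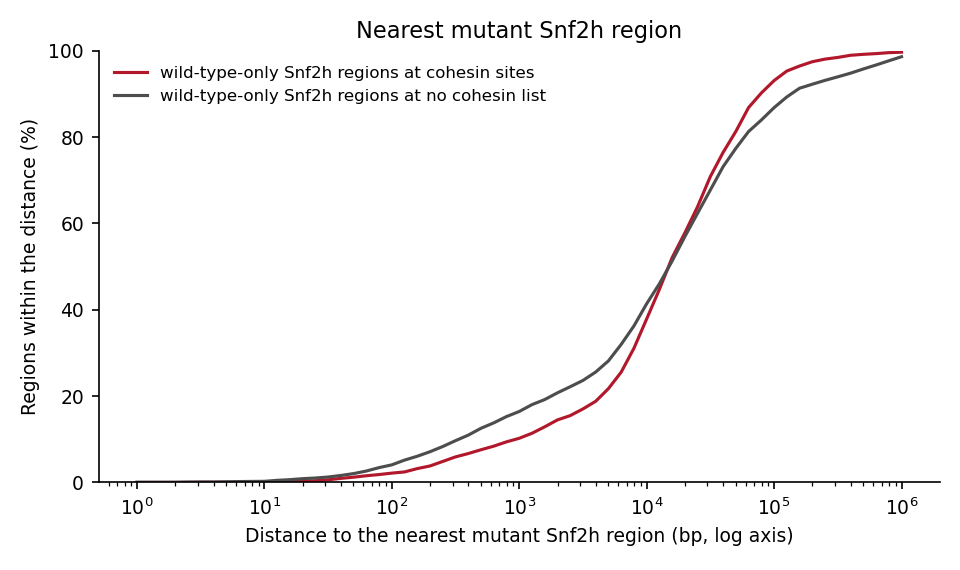
Share of wild-type-only Snf2h regions (vertical axis, percent) with a mutant Snf2h region within a given distance (horizontal axis, bp, log scale), at all 6 cohesin lists and at none. The curve of the regions at cohesin is lower up to 10 kb (37.9% against 41.4%) and higher at 100 kb (93.1% against 86.8%).

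The nearest mutant region was itself at all 6 cohesin lists for 25.8% of the members, against 20.9% of all 23441 mutant regions. For the 1124 members whose nearest mutant region lay beyond 10 kb it was 21.7% (19.3% to 24.2%), close to that of all mutant regions. Among the 185 members with a mutant region within 1 kb this share was 48.6% (41.2% to 56.1%), and among the 69 within 200 bp it was 66.7% (54.3% to 77.6%). The rule places every member on cohesin, so a mutant region close by can meet the same site, and the shares at short distance are a description. A mutant region met the very same merged cohesin site as the member in 85 cases (4.70%). In those cases the wild-type and mutant Snf2h summits were a median of 421 bp apart (383 to 458) and lay on opposite sides of the cohesin summit at 51 of 85 sites (60.0%; 48.8% to 70.5%). At such sites the rule counts a region as absent from the mutant although Snf2h was called nearby on the same site. At the other 1724 members no mutant Snf2h region met their cohesin site.

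The closest pairs show what the rule separates. The member at chr6:99435750-99435966 ended 3 bp from a mutant region. It had 21 fragments and a fold of 2.57, at percentile 1.45 of the wild-type list, and the mutant region had 23 fragments and a fold of 2.72. At chr10:76715531-76715693 the gap was 10 bp, with 19 fragments in the member and 16 in the mutant region. At chr4:131967391-131967782 it was 13 bp, with 27 and 18 fragments. The mutant neighbour met all 6 cohesin lists in each of these 3 pairs. At the other extreme stood chr14:97353830-97354034, whose nearest mutant region was 2091 kb away, chr17:61460259-61460445 at 1626 kb and chr9:5395993-5396298 at 1520 kb. Their pileups were 17, 19 and 21 fragments and their mean cohesin percentiles 53.6, 71.0 and 57.6, all below the members' median.

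The members were scattered singly over the autosomes. The nearest other member was a median of 211 kb away (188 to 227), and only 1.55% had one within 1 kb and 30.4% within 100 kb. Of the merged cohesin sites, 13 held a pair of members and none held more. Counts ran from 46 members on chromosome 18 to 157 on chromosome 11. Per 1000 merged cohesin sites, chromosome 14 had 58.5 members and the other autosomes 28.5 to 43.7. Chromosome 14 also had the fewest such sites (1488) and was highest for shared (69.9 per 1000) and mutant-only regions (67.2 per 1000), so its value is not particular to the members. The share of wild-type regions at cohesin without a mutant counterpart ran from 42.1% (35.3% to 49.1%) on chromosome 3 to 54.5% (47.7% to 61.2%) on chromosome 1. The interval of chromosome 1 also lay above that of chromosome 11 (42.3%; 37.2% to 47.5%), as an observation picked from 19 chromosomes with no test.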

How the data were processed

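Peak lists of 8 ChIP-seq libraries were analysed (2 for Snf2h, 6 for cohesin), of the 30 samples of the series; the other 22 were not analysed here. Chromatin was fixed with formaldehyde and sheared, per the labels' protocols. The submitters' processing notes name Bowtie, Bowtie2, SAMtools, MACS2 and deepTools 3.5.0 and the builds mm9 and hg19, without roles. Coordinates are taken as mm9, because chromosome 1 regions end at up to 197182423, beyond the last GRCm38 gene end of the reference table (195291439). Peaks are in MACS2's narrowPeak columns: the authors deposited for each region a score (not used), a fold ratio at the summit, a -log10 p and a -log10 q, and the summit. Caller settings and controls are not given in the sources used here. Region names carry a tag that may stand for pooled replicates, which the labels do not state. Total reads per library are not in these lists, so depth is known only through pileups.

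From these values overlaps, edge distances, summit distances and ranks within each list were computed on chromosomes 1 to 19 with Python 3.11.15, numpy 2.4.6, pandas 2.3.3 and scipy 1.17.1, and tested against bedtools 2.31.1. The pileup n and background b were solved from fold = (n + 1)/(b + 1) and the Poisson tail, to within 0.001 of the deposited -log10 p; 16792 of 16793 wild-type and 23436 of 23441 mutant regions were solved, and simulated pileups were recovered. Confidence level was 95%. Regions named in the text are the 6 members highest in the wild-type list, the 3 with the highest lowest cohesin percentile, the 3 nearest to and 3 farthest from a mutant region, and from the 3 largest differences between EV and BORIS in each direction, some examples. Alternatives were 13 planned settings (thresholds, overlap rules, list length, antibodies, lines, chromosome X) and 2 added after seeing the data. The members and lists were chosen with earlier results of these data known. Genes, motifs and sequences were not analysed here, for lack of a genome of the build.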

Additional observations from a re-analysis of the deposited data

How the results depend on the processing

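The number of members was within 1.5 times of 1809 in 11 of 13 other settings. Requiring -log10 q to reach 10 in wild-type and mutant Snf2h alike gave 116, and requiring it in the wild-type list alone gave 36. The share of wild-type regions at cohesin without a mutant region, 46.4%, was 27.2% and 8.43% under these settings. It was 48.1% with that threshold in the cohesin lists, 55.5% against the strongest 16793 mutant regions, 41.6% with no mutant region within 1 kb, and 49.7% when an overlap counted only from 50% of the shorter region. Regions at no cohesin list had a lower share in 13 of 13 settings (3.88% in place of 8.43% at the threshold in the wild-type list), with intervals apart in 13. These settings re-cut the same lists without weighting for rank, and the rule uses this contrast, so they are no independent evidence. The median summit distance, 66.5 bp, was 59.75 bp and 39.25 bp at the thresholds in both Snf2h lists and in the wild-type list, and 55.5 bp where the Snf2h summit had to lie inside all 6 cohesin lists. It was 62.25 bp for members with cohesin summits within 30 bp and 63 bp for members no wider than the median, 2 settings chosen after seeing the data. The median distance to a mutant region, 14.8 kb, was 84.5 kb and 10.7 kb at the 2 thresholds, 22.0 kb with equal list lengths, 17.7 kb with the 1 kb rule and 13.3 kb with the 50% rule. Stricter thresholds leave fewer regions, and the 1 kb rule removes near ones by construction; other causes were not tested. No paired analysis was possible because no group has replicates. The median member had 21 fragments at its summit; how pileup bears on the call or the summit was not tested.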
